A study of Mus musculus with 8 samples.

Results

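The genes described here are Fabp4, Fabp5, Fabp7, Lpl, Plin2, Plin3, Pnpla2, Mgll, Dgat1 and Hilpda, a set of 10 that serve fatty acid binding, triglyceride breakdown and synthesis, and the lipid droplet. They were taken by symbol, and all 10 were found among the 29956 named genes of the deposited FPKM table (fragments scaled by transcript length and library size) and among the 35906 genes to which kallisto estimated counts were summed. All 10 also passed the filter on low counts, which left 15212 genes to test. The study profiled liver macrophages of wild-type BALB/c mice after a vehicle control (4 libraries) or after CCl4 (4 libraries), a liver toxin whose repeated use is a standard way of making fibrosis in mice. Cells of both groups came from collagenase-digested, perfused livers and were sorted for CD45 and F4/80, and the design text adds that they were CD31-. The sample titles name the CCl4 group for fibrosis. The sources used here do not give the dose or duration of CCl4, the age or sex of the mice, or the number of mice behind each library. No label states that libraries came from different mice, and the p-values therefore rest on spread among libraries that may be partly technical.

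Fatty acid binding proteins are small cytosolic carriers that take fatty acids to membranes, droplets and nuclear receptors, and tissues use different members of the family. Triglyceride carried by lipoproteins is cut outside the cell by lipoprotein lipase (Lpl), and fatty acids that enter the cell and are not burnt are esterified to triglyceride, last by the acyltransferase Dgat1, and stored in droplets coated by perilipins such as Plin2 and Plin3. Stored triglyceride is cut by adipose triglyceride lipase (Pnpla2), which Hilpda inhibits, and Mgll removes the last fatty acid from glycerol. Macrophages that take up much lipid are known to become rich in droplets.

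Levels within a gene are given as CPM, estimated counts scaled to a common library size with TMM factors, and levels between genes as FPKM, which also corrects for length. Libraries held between 19489104 and 26196063 estimated counts. Vehicle 2 and CCl4 4 stood apart from the other 6 libraries. Their totals were the lowest, and the number of genes with at least 1 count was highest in them, 22971 and 23808 against 19228 to 21614, so counts were repeated without both. Mitochondrial transcripts, a sign of RNA quality, were 1.91% to 5.31% of counts in vehicle and 0.763% to 1.16% in CCl4 libraries, and the part of this difference in the results below was not tested. The macrophage markers of the sort were abundant in both groups: Adgre1, which encodes F4/80, was at 1272 ± 210 (SD, n = 4) CPM in vehicle and 1187 ± 166 in CCl4, and Ptprc, which encodes CD45, at 512.3 ± 78.0 and 623.4 ± 73.8. Pecam1, which encodes CD31, was at 73.8 ± 21.3 and 27.4 ± 2.9 CPM.

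After CCl4, 7 of the 10 genes rose and 1 fell, by edgeR's quasi-likelihood test with Benjamini-Hochberg adjustment over all genes tested at 0.05. Fabp5, Fabp4, Lpl, Plin2, Dgat1, Plin3 and Pnpla2 rose, Fabp7 fell, and Hilpda and Mgll did not pass. The median log2 fold change of the 10 genes was 0.92, against -0.03 over all genes tested. Of all genes tested, 15.2% passed in either direction, 8.93% higher and 6.26% lower. The CPM ranges of vehicle and CCl4 did not overlap for these 8 genes, nor for 22.5% of all genes tested (13% with CCl4 higher and 9.49% with CCl4 lower). The counts of 7 higher and 1 lower held in every fit that left out 1 library and in the fit without vehicle 2 and CCl4 4. On FPKM values, limma without a filter on low values called 4 of the 10, beside 2.66% of its 24443 genes, and with a filter 7 of the 10, beside 13.7% of its 8249 genes.

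**Figure D1:**
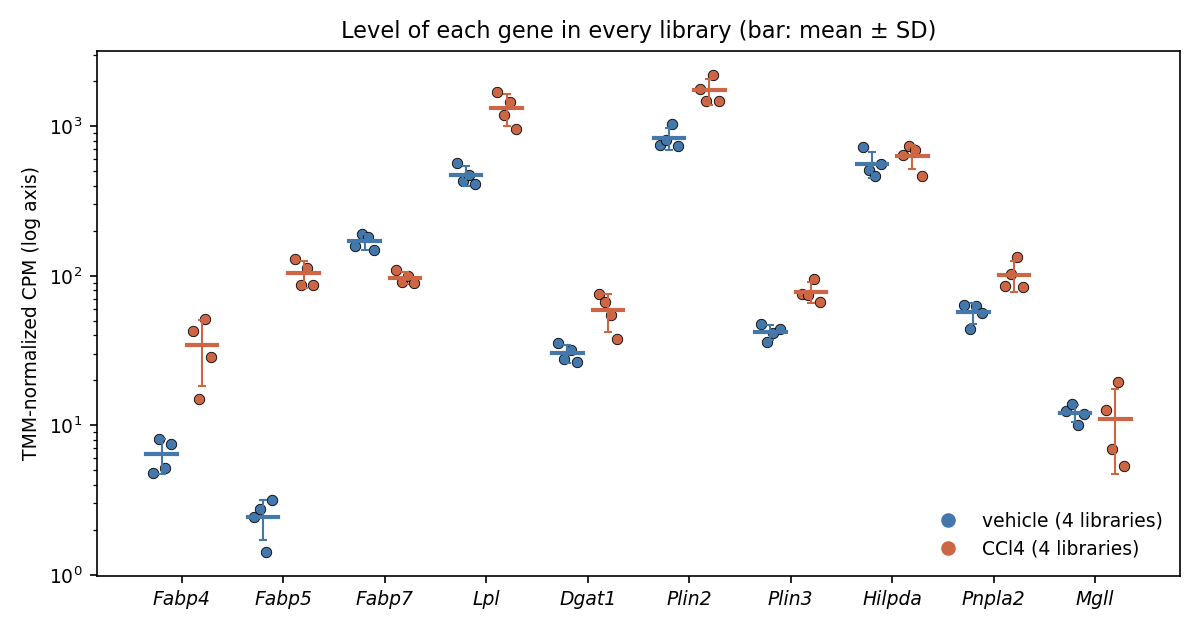
TMM-normalized CPM (log axis) of each gene in the 4 vehicle and the 4 CCl4 libraries, with points for libraries and bars for the mean ± SD. The points of the groups overlap for Hilpda and Mgll and for no other gene shown.

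**Figure D2:**
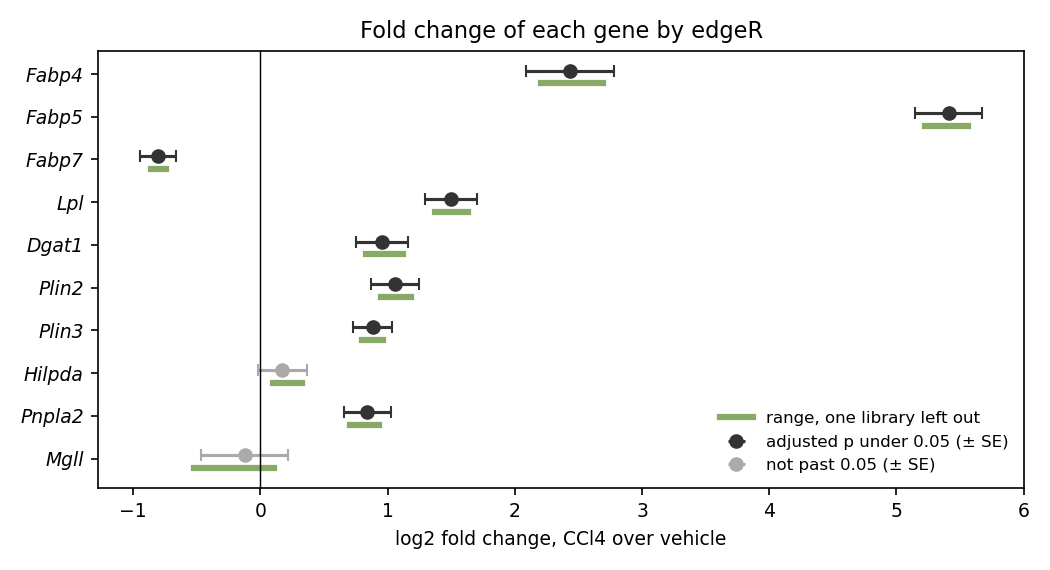
Log2 fold change (CCl4 over vehicle) of each gene by edgeR with its SE, and below it the range over fits that leave out 1 library. Fabp5 lies at 5.41, Fabp7 is the one called gene below 0, at -0.80, and the range of Mgll spans 0.

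Promoter sequence is shown for 3 genes that differ in direction, Plin2 (rose), Fabp7 (fell) and Hilpda (did not pass). The RefSeq promoter table (build GRCm38.p6) had entries for 6 of the 10 genes, 8 start sites in all: Fabp7, Hilpda, Mgll, Plin2, Plin3 and Pnpla2. Fabp4, Fabp5, Lpl and Dgat1 had none. Each run is 260 bases, 5′ to 3′ on the gene's strand, with 250 bases before the start and 10 after it, and capitals mark the motifs named in the next paragraph. The windows are chr4:86670050-86670309 (minus strand) for Plin2, chr10:57784673-57784932 (plus strand) for Fabp7 and chr6:29272376-29272635 (plus strand) for the downstream of the 2 Hilpda starts.
Plin2: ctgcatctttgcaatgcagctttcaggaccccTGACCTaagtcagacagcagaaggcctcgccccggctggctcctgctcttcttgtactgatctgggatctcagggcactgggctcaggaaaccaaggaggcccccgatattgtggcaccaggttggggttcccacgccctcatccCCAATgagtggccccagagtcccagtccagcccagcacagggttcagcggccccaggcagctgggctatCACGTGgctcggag
Fabp7: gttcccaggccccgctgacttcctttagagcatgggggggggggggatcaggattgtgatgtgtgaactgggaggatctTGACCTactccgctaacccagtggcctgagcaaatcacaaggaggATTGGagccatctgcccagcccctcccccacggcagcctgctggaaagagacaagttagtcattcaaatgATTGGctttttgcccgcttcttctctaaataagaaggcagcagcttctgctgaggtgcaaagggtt
Hilpda: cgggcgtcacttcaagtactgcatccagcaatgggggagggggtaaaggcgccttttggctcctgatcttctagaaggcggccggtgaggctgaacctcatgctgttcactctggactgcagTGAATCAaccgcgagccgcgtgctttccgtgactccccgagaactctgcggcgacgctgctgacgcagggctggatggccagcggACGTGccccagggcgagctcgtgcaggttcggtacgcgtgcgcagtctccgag

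Motifs were searched on both strands in these windows and in the same window of all 32851 entries of the table. The position -1 is the base before the start and 1 the first base of the transcript. The nuclear receptor half-site TGACCT was found at -218 to -213 in Plin2 and at -171 to -166 in Fabp7, and 14.5% of all entries hold it. The full DR1 element that PPAR receptors bind, a direct repeat of AGGTCA, was in none of the 8 windows and in 0.0335% of all entries. The core ACGTG that hypoxia-inducible factors bind was in 4 of the 8 windows, and 17.3% of all entries hold it. It was at -43 to -39 in the printed Hilpda window but absent from the window of the other Hilpda start. Windows of Mgll and Plin2 held it too. Plin2 had the E-box CACGTG, which contains that core, at -4 to 2, as do 6.34% of all entries. A CCAAT box was at -73 to -69 in Plin2 and, on the other strand, at -126 to -122 and -56 to -52 in Fabp7, beside 34.6% of all entries. The AP-1 motif TGANTCA was at -128 to -122 in Hilpda, beside 7.03% of all entries. The TATA box TATAAA was in none of the 8 windows, beside 12.7% of all entries. The GC box GGGCGG was in 5 of the 8 windows but in none of those printed, beside 33.4% of all entries. A match in letters is a description of the window and does not show a bound site.

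Among the fatty acid binding proteins, Fabp5 and Fabp4 rose while Fabp7 fell. Fabp5, the epidermal-type carrier also known from macrophages (chr3:10012548-10016607, plus strand, GENCODE M21 on mm10), was at 2.44, 2.74, 1.42 and 3.16 CPM over vehicle 1 to 4, against 129.2, 86.7, 112.5 and 86.7 CPM over CCl4 1 to 4. The groups lay far apart, with vehicle libraries holding 36 to 79 estimated counts of it and CCl4 libraries 1823 to 2794. Its log2 fold change was 5.41 (SE 0.26, edgeR adjusted p = 1.05e-06), a 42.5-fold rise, against 5.32 on the log2(FPKM + 0.1) scale and 3.84 on the log2(FPKM + 1) scale by limma. It was the lowest of the 10 genes in vehicle by FPKM (0.384 ± 0.140, SD, n = 4) and the fifth highest in CCl4 (18.9 ± 3.3).

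The main Fabp5 transcript has 957 words of 31 bases, the default word length of kallisto, and shared 317 of them (33.1%) with transcripts of 5 other genes. Gm6166 shared 260 of these words. It rose beside Fabp5, from 0.267 ± 0.170 to 12.3 ± 4.0 CPM (SD, n = 4; log2 fold change 5.53, SE 0.42, edgeR adjusted p = 1.93e-05), with 3.0 to 11.5 estimated counts per vehicle library and 176.9 to 371.3 per CCl4 library. Since kallisto splits reads between near-identical sequences, the counts of Gm6166 and Fabp5 cannot be fully told apart. With the counts of all 5 copies added to Fabp5 its log2 fold change was 5.39. The main transcripts of Fabp4 and Fabp7 shared 0 such words with any other gene.

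Fabp4, the carrier of adipocytes, capillary endothelium and activated macrophages (chr3:10204088-10208576, minus strand), was at 4.77, 8.08, 5.14 and 7.52 CPM over vehicle 1 to 4, against 42.8, 15.02, 51.5 and 28.6 CPM over CCl4 1 to 4. All CCl4 libraries were above all vehicle libraries, and the CCl4 libraries spread widely. The log2 fold change was 2.43 (SE 0.35, edgeR adjusted p = 0.000707), and it ran from 2.20 without CCl4 3 to 2.69 without CCl4 2. On FPKM, limma gave 1.75 on the log2(FPKM + 0.1) scale and 1.31 on the log2(FPKM + 1) scale. An added pseudocount understates the change of low genes. Without one, the ratio of mean FPKM was 3.76, still below the 5.41-fold rise from counts. The source of that gap was not tested. Of 15 endothelial markers 13 fell and 0 rose, with a summed level of 562.5 to 957.5 CPM in vehicle and 217.2 to 350.2 in CCl4. The adipocyte hormone genes Adipoq and Lep averaged 0.0564 and 0.145 CPM in vehicle and 0.0231 and 0.0829 in CCl4, and Cfd was at 0 in every library. Over the 10 adipocyte markers, of which 3 could be tested and 0 passed, the summed level was 16.2 to 18.9 CPM in vehicle and 16.9 to 26.2 in CCl4, mostly Lipe, a lipase that macrophages also express.

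Fabp7, the brain-type carrier that is also known from Kupffer cells, the resident macrophages of the liver (chr10:57784881-57788450, plus strand), was at 158.1, 191.3, 180.5 and 148.5 CPM over vehicle 1 to 4, against 109.0, 91.2, 99.9 and 89.2 CPM over CCl4 1 to 4. Every CCl4 library was below every vehicle library. The log2 fold change was -0.80 (SE 0.14, edgeR adjusted p = 0.00267), so that about 0.574 of the vehicle level was left. Kupffer cell markers fell beside it: 10 of 12 were lower and 0 higher, from a summed 24490 to 38510 CPM in vehicle to 8515 to 14431 in CCl4. Their median log2 fold change of -1.73 was further from 0 than that of Fabp7, and their part in the change of Fabp7 was not tested. In sorted bulk samples fewer cells of a type and less RNA per cell cannot be told apart. The glial gene Sox10, from another cell type known for Fabp7, averaged 0.0416 CPM in vehicle and 0.0800 in CCl4. Mbp, another of the 8 glial genes, rose, with 7.28 ± 3.1 CPM in vehicle and 37.2 ± 6.85 CPM in CCl4 (log2 fold change 2.35, edgeR adjusted p = 0.000228). Of the 4 glial genes that could be tested 1 rose, Mbp, and 0 fell, with a median log2 fold change of 0.11. The summed glial level went from 7.63 to 13.4 CPM in vehicle to 34.3 to 49.3 in CCl4, with Mbp the most abundant gene in it.

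Per length, the make-up of the 3 carriers within each library differed between the groups. Shares of their summed FPKM are used because FPKM totals of different libraries are not on one scale. Fabp7 made up 94.7% to 97.4% of the sum in vehicle and 46.0% to 54.0% in CCl4. Fabp5 made up 0.494% to 1.35% in vehicle and 37.7% to 41.0% in CCl4, a narrow range over the 4 CCl4 libraries. Fabp4 made up 2.13% to 3.91% and 6.01% to 13.9%. These shares are a description of the 3 genes, and no test was run on them. In CCl4 the FPKM of Fabp7 (23.5 ± 2.2) and Fabp5 overlapped. By TPM, the level per length that kallisto gives, their main transcripts did not overlap in CCl4. Fabp7-201 was at 196.1 to 230.0 TPM and Fabp5-201 at 138.9 to 192.1.

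**Figure D3:**
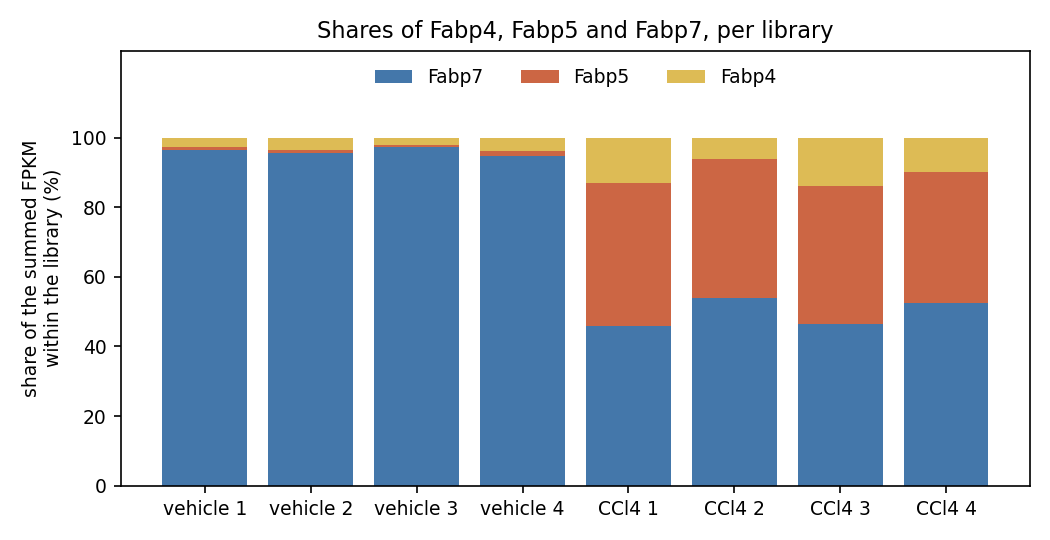
Share (%) of Fabp7, Fabp5 and Fabp4 in their summed FPKM within each library, stacked to the whole. Fabp5 makes up 37.7% to 41.0% of the bar in the 4 CCl4 libraries and at most 1.35% in vehicle.

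Of 14 genes of other fatty acid and related lipid binding proteins 7 passed the filter, 1 rose and 1 fell. The heart-type carrier Fabp3 rose, with 2.51 ± 2.14 CPM in vehicle and 8.12 ± 1.5 CPM in CCl4 (log2 fold change 1.70, edgeR adjusted p = 0.0378). Scp2, the sterol carrier and the most abundant gene here, had 333.7 ± 4.28 CPM in vehicle and 257.5 ± 36.8 CPM in CCl4, which missed the threshold (log2 fold change -0.37, edgeR adjusted p = 0.108) although the groups did not overlap. The liver-type carrier Fabp1, abundant in hepatocytes and named here after its values were seen, had 33.9 ± 14.6 CPM in vehicle and 18.99 ± 6.15 CPM in CCl4 and missed it too (log2 fold change -0.84, edgeR adjusted p = 0.0898).

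Lpl, the enzyme that frees fatty acids from lipoprotein triglyceride (chr8:68880491-68907448, plus strand), rose. It was at 569.6, 430.0, 471.2 and 411.7 CPM over vehicle 1 to 4, against 1703, 1196, 1459 and 957.0 CPM over CCl4 1 to 4. CCl4 4 was the lowest of its group and still above all vehicle libraries. The rise was 1.497 on the log2 scale (SE 0.20, edgeR adjusted p = 0.00051), and it ran from 1.37 to 1.63 with 1 library left out.

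Partners of Lpl and other uptake genes moved in both directions. Of 26 tested genes of lipoprotein and fatty acid uptake 5 rose and 4 fell, with a median log2 fold change of -0.0034, close to the -0.03 of all genes tested. The fatty acid translocase Cd36 rose, with 121.7 ± 22.6 CPM in vehicle and 550.6 ± 115.3 CPM in CCl4 (log2 fold change 2.18, edgeR adjusted p = 5.98e-05). Slc27a1, a fatty acid transporter, rose by counts, with 31.01 ± 10.2 CPM in vehicle and 125.7 ± 30.1 CPM in CCl4 (log2 fold change 2.02, edgeR adjusted p = 0.000426). In the deposited FPKM table Slc27a1 went the other way, with 0.222 ± 0.0902 FPKM in vehicle and 0.056 ± 0.11 in CCl4, so its direction depends on the table. Gpihbp1, which carries Lpl across capillary endothelium, fell, with 48.6 ± 7.79 CPM in vehicle and 11.9 ± 4.13 CPM in CCl4 (log2 fold change -2.03, edgeR adjusted p = 0.00017). This stood beside the fall of 13 of 15 endothelial markers, a list that holds Gpihbp1 too, and their part in it was not tested. The scavenger receptor Msr1, the most abundant uptake gene, had 1098 ± 195.1 CPM in vehicle and 993.9 ± 178.8 CPM in CCl4 without passing (log2 fold change -0.14, edgeR adjusted p = 0.678). The apolipoproteins that modulate Lpl were chosen, like Angptl4, after their values were seen. Among them 1 activator rose, 1 activator and 1 inhibitor fell, and Apoc3 did not pass. The activator Apoc2 rose, with 23.03 ± 6.41 CPM in vehicle and 59.5 ± 15.6 CPM in CCl4 (log2 fold change 1.37, edgeR adjusted p = 0.00212). Apoa5, another activator, fell, with 3.21 ± 1.76 CPM in vehicle and 0.947 ± 0.528 CPM in CCl4 (log2 fold change -1.75, edgeR adjusted p = 0.0426). Apoc1, an inhibitor, fell, with 257.1 ± 33.2 CPM in vehicle and 122.2 ± 33.3 CPM in CCl4 (log2 fold change -1.07, edgeR adjusted p = 0.00367). Apoc3 had 4.72 ± 1.30 CPM in vehicle and 4.23 ± 0.724 CPM in CCl4 (log2 fold change -0.16, edgeR adjusted p = 0.76). Angptl4, an inhibitor of another family, had 15.4 ± 5.33 CPM in vehicle and 27.4 ± 10.1 CPM in CCl4 without passing (log2 fold change 0.84, edgeR adjusted p = 0.0853).

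Dgat1, which joins the last fatty acid to triglyceride (chr15:76502015-76511953, minus strand), rose. It was at 35.3, 27.6, 31.6 and 26.5 CPM over vehicle 1 to 4, against 75.9, 67.2, 54.3 and 38.0 CPM over CCl4 1 to 4. The gap between the groups was small, since CCl4 4 lay just above vehicle 1. The log2 fold change was 0.96 (SE 0.20, edgeR adjusted p = 0.00811), and by FPKM the groups overlapped, with CCl4 4 at 4.69 and vehicle 1 at 5.01. Limma on FPKM without a filter gave adjusted p = 0.183. Estimated counts of the main coding transcript, Dgat1-201, overlapped, at 401.0 to 594.5 in vehicle and 448.1 to 975.4 in CCl4 libraries. Its TPM (level per length by kallisto) did not overlap, at 12.96 to 17.60 and 17.74 to 32.10. Levels of single Dgat1 transcripts were not tested.

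Of 20 tested genes of fatty acid activation and triglyceride synthesis 5 rose and 1 fell, with a median log2 fold change of 0.28. The largest changes that passed were in acyltransferases of phosphatidic acid synthesis. Agpat4 had 11.1 ± 2.92 CPM in vehicle and 44.03 ± 15.6 CPM in CCl4 (log2 fold change 1.98, edgeR adjusted p = 0.000465). Agpat1 had 6.66 ± 1.24 CPM in vehicle and 21.1 ± 3.3 CPM in CCl4 (log2 fold change 1.66, edgeR adjusted p = 0.000189), and Agpat2 had 5.93 ± 1.51 CPM in vehicle and 12.4 ± 2.06 CPM in CCl4 (log2 fold change 1.06, edgeR adjusted p = 0.00656). Soat1, which esterifies cholesterol for droplets and was the most abundant of them, had 311.1 ± 56.9 CPM in vehicle and 434.7 ± 78.2 CPM in CCl4 without passing (log2 fold change 0.48, edgeR adjusted p = 0.106). Dgat2, the unrelated enzyme with the same reaction as Dgat1 and named after its values were seen, rose, with 8.84 ± 3.24 CPM in vehicle and 17.5 ± 3.88 CPM in CCl4 (log2 fold change 0.98, edgeR adjusted p = 0.0378).

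Both perilipins of the set rose. Plin2, the main droplet coat of non-fat cells (chr4:86648386-86670060, minus strand), was at 745.8, 815.6, 1034 and 741.8 CPM over vehicle 1 to 4, against 1774, 1485, 2217 and 1476 CPM over CCl4 1 to 4. The replicates numbered 3 were the highest of both groups, and the lowest CCl4 library was above the highest vehicle library. By edgeR the log2 change was 1.06 (SE 0.19, edgeR adjusted p = 0.00285). The main Plin2 transcript shared 157 of 1858 words of 31 bases with Gm12551, which held at most 21.0 estimated counts in a library, and the fold change with Gm12551 added was also 1.06.

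Plin3, a perilipin that moves from the cytosol to young droplets (chr17:56277476-56292873, minus strand), was at 47.6, 35.9, 41.6 and 43.9 CPM over vehicle 1 to 4, against 75.02, 74.4, 95.6 and 66.7 CPM over CCl4 1 to 4. The groups were apart, with CCl4 3 highest. The fitted log2 change was 0.88 (SE 0.15, edgeR adjusted p = 0.00234). Limma on FPKM without a filter ended both calls, with adjusted p = 0.052 for Plin2 and adjusted p = 0.0916 for Plin3. Per length, Plin2 exceeded Plin3 by 39.0 to 65.3 times in vehicle libraries and by 50.5 to 59.1 times in CCl4 libraries, overlapping ranges of FPKM ratios.

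Of 19 tested genes of droplet coat and formation 1 rose and 0 fell, with a median log2 fold change of 0.18. The gene that rose was Pcyt1a, the rate-limiting enzyme of phosphatidylcholine synthesis for the droplet surface, with 42.5 ± 8.19 CPM in vehicle and 77.6 ± 9.58 CPM in CCl4 (log2 fold change 0.87, edgeR adjusted p = 0.00487). The endosomal GTPase Rab7, the most abundant of them, had 361.8 ± 24.4 CPM in vehicle and 461.2 ± 54.6 CPM in CCl4 without passing (log2 fold change 0.35, edgeR adjusted p = 0.133). The fat-cell coats Plin1, Plin4 and Cidec, named after their values were seen, averaged at most 0.788, 0.0116 and 0.128 CPM in either group.

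Hilpda, a small droplet protein that inhibits Pnpla2 and is a known target of hypoxia (chr6:29272488-29275446, plus strand), was abundant and did not pass the test. It was at 721.6, 508.1, 468.1 and 555.1 CPM over vehicle 1 to 4, against 646.9, 736.4, 690.9 and 462.8 CPM over CCl4 1 to 4. The ranges overlapped, with CCl4 4 the lowest of all 8 libraries. On the log2 scale the change was 0.17 (SE 0.19, edgeR adjusted p = 0.63), and it ran from 0.03 with library size only to 0.33 without vehicle 1. By FPKM, Hilpda had the highest mean of the 10 genes in vehicle (111.1 ± 27.2) and the next highest after Plin2 in CCl4 (116.7 ± 30.0 against 160.7 ± 24.6), with ranges that overlapped those of Plin2 in both groups.

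Pnpla2, the lipase that starts triglyceride breakdown (chr7:141455198-141460743, plus strand), rose by edgeR. It was at 63.8, 44.1, 63.2 and 56.6 CPM over vehicle 1 to 4, against 85.2, 103.4, 134.5 and 84.4 CPM over CCl4 1 to 4. All CCl4 libraries were above all vehicle libraries. By edgeR the log2 change was 0.84 (SE 0.19, edgeR adjusted p = 0.01). This call ended in all 3 fits of limma to FPKM values, with adjusted p = 0.0562 and 0.0604 for pseudocounts of 1 and 0.1 and adjusted p = 0.187 without a filter. Of 7 Pnpla2 transcripts the main one, Pnpla2-201, is annotated as subject to nonsense-mediated decay. It held 64.29% ± 4.77 of Pnpla2 counts in vehicle and 65.96% ± 2.92 in CCl4 (SD, n = 4). Estimated counts of the coding Pnpla2-202 overlapped, at 238.8 to 379.8 in vehicle and 333.2 to 518.5 in CCl4 libraries. Its TPM did not overlap, at 8.15 to 11.4 and 11.6 to 17.02. Levels of single Pnpla2 transcripts were not tested.

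Mgll, the lipase of monoacylglycerol and of an endocannabinoid (chr6:88724412-88828360, plus strand), did not pass. It was at 12.5, 13.8, 10.1 and 12.0 CPM over vehicle 1 to 4, against 12.6, 6.90, 19.5 and 5.37 CPM over CCl4 1 to 4. The vehicle libraries lay close together, while CCl4 libraries lay on both sides of them. The fitted log2 change was -0.12 (SE 0.34, edgeR adjusted p = 0.858), and its sign depended on which library was left out. Its counts were low, from 113 to 430 per library, and spread over 10 transcripts. Gm26588 and Gm43937 overlap Mgll on the other strand and Gm43999, Gm44001 and Gm44005 on the same strand. These overlaps are by gene span, and whether they reach exons of Mgll was not tested. None of these 5 genes has counts of its own here, and no step that marks strand is named. Where they overlap Mgll exons, their reads could not be told apart from those of Mgll.

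Of 21 tested genes of lipolysis and its regulation 2 rose and 3 fell, with a median log2 fold change of -0.04. Nceh1, a cholesteryl ester hydrolase of macrophages, rose, with 109.5 ± 12.2 CPM in vehicle and 242.3 ± 37.8 CPM in CCl4 (log2 fold change 1.15, edgeR adjusted p = 0.000512). The beta-adrenergic receptor Adrb1 fell, with 11.5 ± 5.41 CPM in vehicle and 4.05 ± 1.05 CPM in CCl4 (log2 fold change -1.51, edgeR adjusted p = 0.0067). Abhd6, a monoacylglycerol lipase, fell, with 8.85 ± 2.31 CPM in vehicle and 4.25 ± 0.548 CPM in CCl4 (log2 fold change -1.06, edgeR adjusted p = 0.00955). Lipa, the acid lipase of lysosomes and the most abundant of them, had 833.0 ± 182.6 CPM in vehicle and 1293 ± 202.2 CPM in CCl4 and missed the threshold (log2 fold change 0.63, edgeR adjusted p = 0.0524), although the groups did not overlap. Of the direct partners of Pnpla2, named after their values were seen, its activator Abhd5 rose, with 25.5 ± 4.5 CPM in vehicle and 40.6 ± 4.16 CPM in CCl4 (log2 fold change 0.67, edgeR adjusted p = 0.0139). G0s2, an inhibitor of Pnpla2, had 14.5 ± 6.94 CPM in vehicle and 18.2 ± 8.16 CPM in CCl4 without passing (log2 fold change 0.33, edgeR adjusted p = 0.627).

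Of 19 tested transcription factors and coregulators of lipid and hypoxia responses 3 rose and 2 fell, with a median log2 fold change of 0.19. Pparg, the receptor known to drive Fabp4 and Plin2 transcription, rose, with 21.2 ± 6.48 CPM in vehicle and 49.9 ± 8.64 CPM in CCl4 (log2 fold change 1.23, edgeR adjusted p = 0.00219). Nr1h3, which encodes the oxysterol receptor LXR-alpha and was the most abundant of them, fell, with 277.4 ± 43.8 CPM in vehicle and 141.9 ± 31.1 CPM in CCl4 (log2 fold change -0.97, edgeR adjusted p = 0.00499). Mitf, a factor of lysosomal genes, rose, with 22.1 ± 3.71 CPM in vehicle and 40.6 ± 10.02 CPM in CCl4 (log2 fold change 0.88, edgeR adjusted p = 0.0124) and group ranges that overlapped. Hif1a, named after its values were seen, had 67.5 ± 20.5 CPM in vehicle and 112.1 ± 22.2 CPM in CCl4 without passing (log2 fold change 0.73, edgeR adjusted p = 0.0582).

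**Figure D4:**
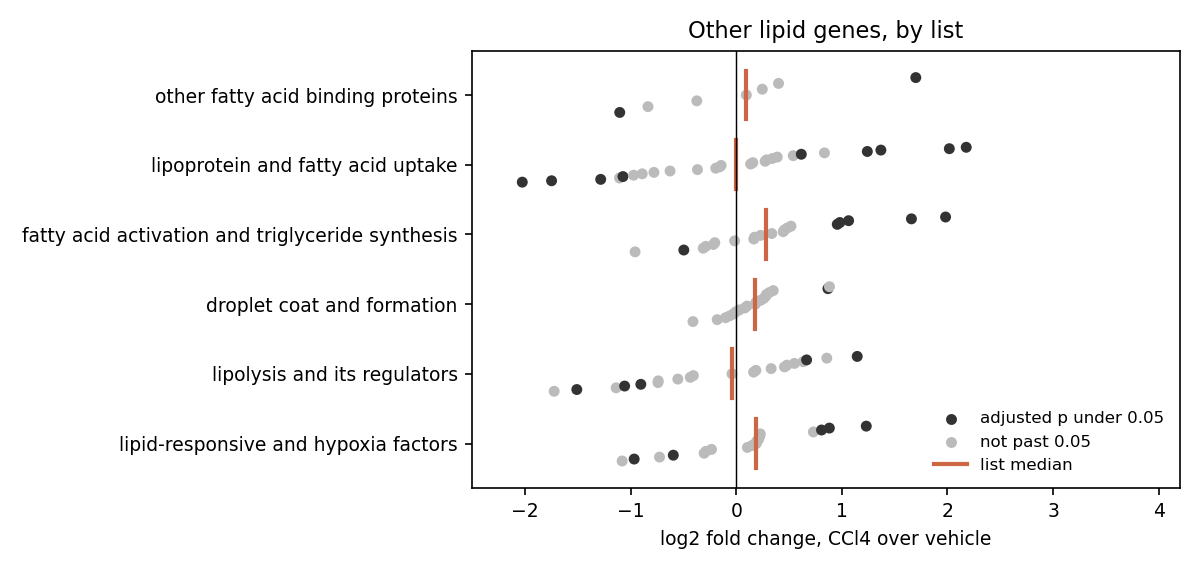
Log2 fold change (CCl4 over vehicle) of every tested gene in 6 lists of other lipid genes, with dark points past the edgeR threshold and a bar at each list's median. Medians lie between -0.04 and 0.28, and dark points stand on both sides of 0 in every list but droplet coat and formation.

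Markers of some other macrophage states and cell types also changed. All 11 markers of lipid-associated macrophages, the Trem2-expressing cells of injured liver, rose, from a summed 5575 to 7116 CPM in vehicle to 36073 to 54783 in CCl4. Of 9 monocyte markers 5 rose and 0 fell, and the sum went from 197.6 to 303.1 CPM to 799.9 to 867.3. Mesothelial markers rose for 8 of 10 (8.35 to 25.1 CPM summed in vehicle, 72.8 to 201.6 in CCl4) and neutrophil markers for 6 of 11 (42.7 to 102.6 and 96.3 to 362.7). Of 12 stellate cell and fibroblast markers 5 rose and 2 fell, with sums that overlapped (140.1 to 523.0 CPM in vehicle, 213.2 to 396.3 in CCl4). Of 11 pan-macrophage markers 2 rose and 1 fell, and the sum went from 26607 to 31661 CPM to 55377 to 75465. Of 13 hepatocyte markers 0 rose and 1 fell. The part of each of these in the changes of the 10 genes was not tested.

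Levels were ordered per length within each group. In vehicle, mean FPKM fell from Hilpda through Plin2, Fabp7, Lpl, Pnpla2, Dgat1, Plin3, Fabp4 and Mgll to Fabp5. Neighbours in that order overlapped for Hilpda with Plin2, Pnpla2 with Dgat1, Plin3 with Fabp4 and Fabp4 with Mgll. In CCl4 the order ran Plin2, Hilpda, Lpl, Fabp7, Fabp5, Pnpla2, Dgat1, Fabp4, Plin3 and Mgll. There the ranges were apart only between Lpl and Fabp7, between Fabp5 and Pnpla2, and between Plin3 and Mgll.

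Several genes differed between groups in how their counts were divided over transcripts, but none of the 10 transcript shares tested passed the threshold. The share of the most abundant transcript was compared by an exact two-sided permutation test, for which 4 against 4 libraries allow no p below 0.0286. Unless most of the 10 shares sat at that floor, none could pass after adjustment, so the failure to pass says little. For Fabp4 the coding transcript held 90.1% ± 4.2 of counts in vehicle and 75.9% ± 5.2 in CCl4 (SD, n = 4; exact permutation p = 0.0286, adjusted to 0.143), and the rest went to Fabp4-202, a retained-intron model of 4231 bases. For Fabp5 the coding transcript held 80.7% ± 7.1 and 94.2% ± 1.4 (exact permutation p = 0.0286, adjusted to 0.143), so the retained-intron share was lower after CCl4. In both genes the groups were fully apart. The size depends on the unit: as shares of TPM, which weigh long models less, the coding transcript differed by -3.10 percentage points for Fabp4 and 4.13 for Fabp5, against -14.2 and 13.5 from counts. For Dgat1 the main coding transcript held 71.0% ± 4.9 and 59.8% ± 7.9 (exact permutation p = 0.0857, adjusted to 0.143), with CCl4 3 at 70.9%, inside the vehicle range. For Fabp7, Plin3, Plin2 and Hilpda the main transcript held at least 89.8% of counts in each of the 8 libraries.

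The 2 main Lpl models are the coding Lpl-201 (4115 bases) and Lpl-203 (1900 bases), annotated as subject to nonsense-mediated decay. Lpl-203 held 52.5%, 24.0%, 52.4% and 56.0% of Lpl counts over vehicle 1 to 4, against 54.4%, 55.1%, 65.6% and 54.9% over CCl4 1 to 4 (exact permutation p = 0.114, adjusted to 0.163). Vehicle 2 was far below the other 7 libraries. The same library had the lowest Lpl FPKM, 14.1 against 28.0 to 36.4 in the other vehicle libraries, while its CPM of 430.0 lay inside the vehicle range. Shares rest on how kallisto divides reads between overlapping models and on the models chosen by the authors.

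**Figure D5:**
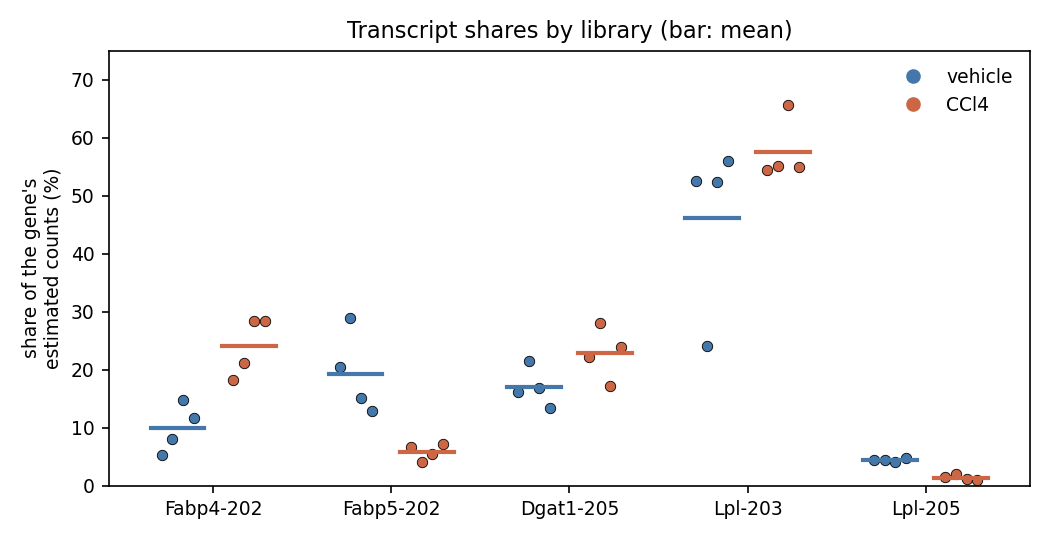
Share (%) of each gene's estimated counts in 5 transcripts (Fabp4-202, Fabp5-202, a Dgat1 retained-intron model of 885 bases, Lpl-203 and Lpl-205, chosen after their values were seen), by library, with bars for group means. Fabp4-202 is higher and Fabp5-202 lower in all CCl4 than in all vehicle libraries, and Lpl-203 in vehicle 2 stands at 24.0%.

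The genes with the most similar pattern to each member over the 8 libraries, by Pearson's r of log2 CPM, are given as a description, since group membership is shared by all 8 points. For Fabp5 these were Myo5a, Gm45752 and Syngr1 (r of 0.998, 0.997 and 0.997), and for Fabp4 Apbb2, Itgax and Sphk1 (0.993, 0.988 and 0.979). For Plin3 they were Pld3, Nceh1 and C3 (0.996, 0.992 and 0.991), and for Pnpla2 Slc25a1, Abhd12 and Sgsh (0.987 for each). Plin2 was nearest to Snx27, Slc17a5 and Has1 (0.982, 0.980 and 0.979), Lpl to Ifngr2, Tmem132a and Ctps2 (0.993, 0.993 and 0.992), and Dgat1 to Tspan3, Kif21b and Slc25a51 (0.990, 0.987 and 0.987). Fabp7 was nearest to Gm49392, Batf3 and Tgtp2 (0.987, 0.980 and 0.979). Hilpda was nearest to Phb2, Sit1 and Hip1r (0.978, 0.956 and 0.944), and Mgll to Ube2v1, Dxo and Smyd2 (0.948, 0.930 and 0.919). Within the set, Plin3 and Pnpla2 were nearest to each other (0.967), and Fabp7 had no member closer than Mgll (0.398).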

How the data were processed

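For each of the 8 libraries the authors deposited kallisto output per transcript, with estimated counts and TPM. They also deposited FPKM per gene for the series, and the sources used here do not state how it was made. The tools named in the submitters' processing notes are kallisto, edgeR and limma, with build mm10. RNA was amplified with SMART-Seq HT, per the labels' protocols. Of 117494 transcripts 116405 matched GENCODE M21 by identifier without version, but 13 with version, so models may differ. Estimated counts were summed per gene and rounded. Genes kept by filterByExpr (minimum count 10, total 15) were tested with edgeR 4.0.16 (R 4.3.3; TMM, group only, two-sided). Alternatives were DESeq2 1.42.0, other scalings and filters, length-scaled TPM counts, limma 3.58.1 with trend on log2(FPKM + 1) and log2(FPKM + 0.1) (mean FPKM of at least 0.5), and libraries left out. SE is the log2 fold change over the root of F. The test was also run on counts simulated from a negative binomial model with spread fitted to these data. That check does not cover the choice of scaling or departures from the model.

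The 10 genes and the lists were chosen with earlier results of these data known, so list counts are descriptions. Named were all 10 genes and, of each other lipid list, the 3 largest changes that passed and the most abundant tested gene. For likeness the 3 genes with the highest r were named. Results of some genes in these lists are not reported here.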

Additional observations from a re-analysis of the deposited data

Results flagged for a closer look

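In 3 of 40 groups of 4 libraries checked (levels and main transcript shares of the 10 genes) 1 library lay far from the other 3 by Dixon's criterion, and chance flags about 1 in 20 groups. The Lpl-203 share in vehicle was 24.0% in vehicle 2, with the next library at 52.4%. In CCl4 that share was 65.6% in CCl4 3, with the next library at 55.1%. The share of the main Fabp7 transcript in CCl4 was 98.8% in CCl4 3, with the next at 99.0%. No level in CPM of the 10 genes was far out in this sense.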

How the results depend on the processing

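Of the 10 genes, 8 were called by DESeq2, by each other scaling, filter and count type and with each library left out. Limma called 7 on filtered FPKM with either pseudocount, and without a filter 4 (Fabp4, Fabp5, Fabp7 and Lpl). Over all genes, limma on FPKM called 1129 with a pseudocount of 1, 1095 with 0.1 and 650 without a filter, against 2311 by edgeR. Leaving out 1 library gave 1582 to 2666 calls, the fewest without CCl4 1. Of all calls 58.8% were higher, against 43.1% when scaled by library size and 47.5% by upper quartile, and the median log2 fold change of all genes went from -0.03 to -0.16 and -0.12. The Mgll log2 fold change changed sign with length-scaled TPM counts (0.058), without CCl4 2 (0.06), without CCl4 4 (0.11) and without vehicle 2 and CCl4 4 together (0.17), and leaving out 1 library gave -0.52 to 0.11. Leaving out 1 library moved the difference in the main Hilpda transcript share between -0.0675 and 0.107 percentage points. Taken from TPM, the difference in the main transcript share was -15.04 percentage points for Plin3, 3.98 for Mgll, 3.34 for Plin2 and 0.608 for Pnpla2, against -1.97, 15.7, 2.12 and 1.67 from counts, beside the values for Fabp4 and Fabp5 given above. Same-numbered libraries of the groups did not deviate together (correlations of 0.0152, -0.241, 0.0387 and -0.169). Differently numbered pairs reached 0.472 (vehicle 2 with CCl4 4) and -0.460 (vehicle 1 with CCl4 4). With 4 libraries per group these values cannot show whether libraries shared a batch. With the replicate number as a block 2110 genes passed, among them the same 8 of the 10. Fabp5 in vehicle rests on 36 to 79 counts and Mgll on 113 to 430 in a library, which limits both, and FPKM columns sum to between 81142 and 113842, so FPKM totals between libraries are not on one scale.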

Other observations

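Lpl-205, a retained-intron model of Lpl that was singled out after its values were seen, held 4.09% to 4.72% of Lpl counts in vehicle and 1.05% to 1.97% in CCl4. Its estimated counts overlapped between the groups, at 410.3 to 617.8 in vehicle and 211.9 to 596.5 in CCl4 libraries. Plin3-202, a coding model of 562 bases, held 0.454% to 2.96% of Plin3 counts in vehicle and 2.37% to 4.03% in CCl4, with ranges that overlapped. No test was run on these shares.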
